A study of Homo sapiens with 4 samples.

Results

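The transcripts of 10 genes that mark glial lineage and the mesenchymal state of glioma were followed in 4 RNA-seq libraries: *SOX2*, *SOX4*, *SOX9*, *SOX11*, *FABP7*, *S100B*, *SLC1A3*, *CHI3L1*, *CD44* and *POSTN*. The genes were listed by name as neural progenitor, astrocyte and mesenchymal genes, with no threshold on a measured value. Of the 10, 9 had linear RNAs under their Entrez identifiers among 46660 gene identifiers, and 6 of these had at least 10 counts in every library. *S100B* and *CHI3L1* were under 10 counts in 3 libraries each and *POSTN* in 2 libraries, and *SOX11* was not analysed here. The libraries came from U87MG and U251MG cells, both established human glioblastoma cell lines grown in DMEM with 10% FBS. In each cell line, 1 library was from control cells carrying the empty pGreen vector, which the sample titles call shControl, and 1 from cells carrying lentiviral shRNA against the ETS family transcription factor *FLI1* (shFLI1). All 4 cultures had been infected with lentivirus in polybrene and selected with puromycin, and were collected as mixed stable populations rather than clones. The labels describe shRNAs against *FLI1* without saying which of them each library carries.

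Glioblastoma cells can take on expression states that recall neural progenitors, astrocytes or mesenchymal cells, and a single tumour or cell line can hold more than one of them. SOX2, SOX4, SOX9 and SOX11 are transcription factors with an HMG box that act in neural progenitors and in glial specification. FABP7 (brain lipid-binding protein) and the glutamate transporter SLC1A3 (GLAST) are markers of radial glia and astrocytes, and S100B is a calcium-binding protein of astrocytes. CD44 is the cell-surface receptor for hyaluronan, CHI3L1 (YKL-40) a secreted chitinase-like protein and POSTN (periostin) a secreted matrix protein, and all of them are used as markers of the mesenchymal state. FLI1 binds DNA through its ETS domain, which reads a purine-rich core, GGAA.

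The promoter sequences of *FABP7*, *SLC1A3* and *SOX4* are shown because these genes carry the main differences described below: *FABP7* was higher in shFLI1 cells of both cell lines, *SLC1A3* was lower in shFLI1 cells of U251MG, and *SOX4* went opposite ways in the cell lines. Each sequence is the 250 bases before the gene's canonical start in GRCh38.p14, taken from RefSeq and written 5′ to 3′. Capitals mark the word GGAAG, an ETS core of FLI1, or its reverse complement CTTCC.

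FABP7 promoter, chr6:122779466-122779715, plus strand: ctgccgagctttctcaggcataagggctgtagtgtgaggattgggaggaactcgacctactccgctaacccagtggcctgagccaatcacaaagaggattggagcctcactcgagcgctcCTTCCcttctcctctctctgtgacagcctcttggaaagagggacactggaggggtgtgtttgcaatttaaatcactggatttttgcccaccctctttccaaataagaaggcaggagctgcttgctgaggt
SLC1A3 promoter, chr5:36606356-36606605, plus strand: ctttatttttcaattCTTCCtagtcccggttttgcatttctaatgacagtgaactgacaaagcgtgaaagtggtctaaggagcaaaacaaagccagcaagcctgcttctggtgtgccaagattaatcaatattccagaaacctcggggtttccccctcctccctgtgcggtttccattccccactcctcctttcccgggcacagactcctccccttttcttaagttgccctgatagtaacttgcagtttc
SOX4 promoter, chr6:21593501-21593750, plus strand: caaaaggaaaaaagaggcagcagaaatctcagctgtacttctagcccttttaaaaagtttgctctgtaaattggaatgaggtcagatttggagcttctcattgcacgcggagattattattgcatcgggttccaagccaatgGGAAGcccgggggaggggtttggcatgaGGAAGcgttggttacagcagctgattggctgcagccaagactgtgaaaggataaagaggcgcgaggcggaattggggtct

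RefSeq promoter windows of 300 bases, from 250 before to 50 after a start, were at hand for 7 of the 10 genes, in 9 windows. GGAAG on either strand was found for 6 of these 7 genes, *SOX2* being the exception, and 71.86% of 35116 such windows over all genes held it. A gene was counted if any of its windows held the word, and *SLC1A3* had several, whereas the share over all genes is per window. The longer ETS word CCGGAAGT, which contains GGAAG, was found in 0 of the 9 windows, against 4.14% of all windows. These matches describe letters in a window and were not tested for binding.

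The authors' table gives an estimated read count for each linear RNA. Summed over genes, the libraries held between 12229779 and 28891055 counts, and the depth of the shFLI1 library relative to its control was 1.74 in U87MG and 1.60 in U251MG. Levels are given as TMM-scaled CPM, that is, counts relative to the size of the library, and a log2 fold change is a difference of log2 CPM values made with a prior count of 2. *FLI1*, the targeted gene, was at 9.34 CPM in U87MG control and 2.34 CPM in U87MG shFLI1 cells, and at 12.1 and 3.71 CPM in U251MG control and shFLI1 cells. With 1 library per condition there is no spread between replicates, and 95% intervals are Clopper-Pearson intervals that cover the counting error of reads only. Genes reaching 10 counts in either library of a pair were tested, and a gene was called when it differed by more than 2-fold and its reads passed an exact binomial test (two-sided, at 0.05), which compares libraries and not conditions. Of the markers of other cell types, *PTPRC* of leukocytes (0 to 5 counts), *PECAM1* of endothelium (0 to 3) and *DCN* of fibroblasts (0 to 1) were at or near 0. Others on the same lists were not, among them *SYT1* of neurons (11.7 to 27.5 CPM), *ACTA2* of pericytes and smooth muscle (5.21 to 25.0 CPM) and *KDR* of endothelium (4.90 to 13.7 CPM). The summed level of each list over the libraries was 0.90 to 2.54 CPM for the 5 microglia and macrophage markers measured of 8 listed, 8.05 to 16.0 CPM for 4 endothelial markers, 16.4 to 36.4 CPM for 5 neuronal markers and 0.35 to 0.80 CPM for 4 markers of mature oligodendrocytes.

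Levels of different genes can be set side by side only per length, and for this the authors' FPKM was summed over the RNAs of each gene. *CD44* had the highest FPKM of the 9 genes in every library, from 339 to 621, which lay between the 99.1 and 99.6 percentiles of genes with an FPKM above 0. *SOX2* (48.5 to 80.3 FPKM), *SOX9* (36.5 to 52.4 FPKM) and *SOX4* (25.3 to 96.2 FPKM) formed a second tier, and *SOX4* stood first among them in U251MG but last in U87MG. *FABP7* ranged from 4.38 to 39.7 FPKM and *SLC1A3* from 0.90 to 7.24 FPKM. *S100B*, *CHI3L1* and *POSTN* stayed under 1 FPKM in every library. The cells thus carried abundant transcripts of *SOX2*, *SOX4*, *SOX9* and *CD44*. The astrocyte marker *S100B* and the mesenchymal markers *CHI3L1* and *POSTN* were low, with *POSTN* reaching 59 counts in U251MG shFLI1 cells. Neighbours in this order have no replicate spread against which their distance could be read.

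**Figure D1:**
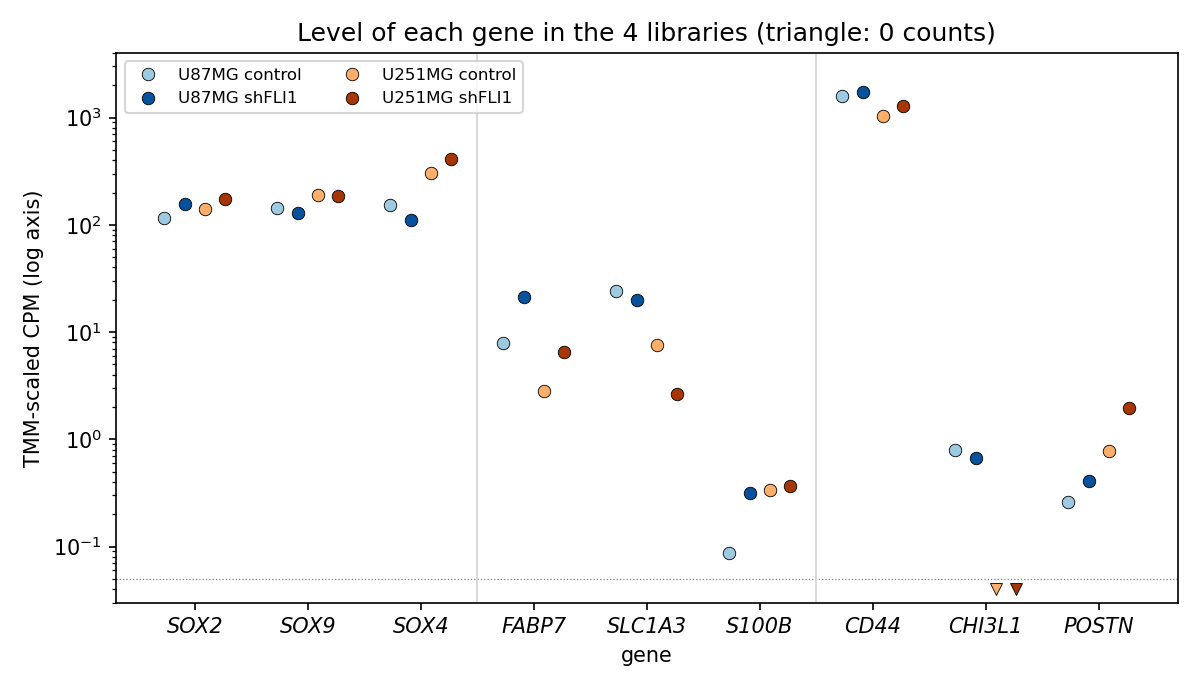
TMM-scaled CPM on a log axis for the 9 measured genes, with 1 point per library, U87MG in blue and U251MG in orange, control pale and shFLI1 dark, and a triangle for 0 counts. Within a gene, *FABP7* is higher in the shFLI1 library of each cell line, from 7.95 to 21.0 CPM in U87MG and from 2.81 to 6.58 CPM in U251MG, whereas *CHI3L1* has 0 counts in both U251MG libraries.

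The first question was which of these genes differed between shFLI1 and control cells in each cell line. *FABP7* was the gene that passed the call in both, higher in shFLI1 cells. In U251MG, *POSTN* was also higher and *SLC1A3* lower. *SOX2*, *SOX4*, *SOX9* and *CD44* differed by less than 2-fold in both cell lines. In U87MG, 1 of the 7 tested genes was called higher and 0 lower, where 7.48% of all 17355 tested genes were called higher and 4.33% lower. In U251MG, 2 of the 8 tested genes were called higher and 1 lower, where 4.44% of 18222 tested genes were called higher and 4.06% lower. Of all genes tested in both cell lines, 0.842% were called higher in both, and *FABP7* was 1 of 138 such genes. Among the 6 genes with at least 10 counts in every library, 3 were higher in both cell lines (*SOX2*, *FABP7* and *CD44*), 2 were lower in both (*SOX9* and *SLC1A3*) and 1 went opposite ways (*SOX4*), although *SOX9* in U251MG changed sign with scaling to total counts or with FPKM.

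**Figure D2:**
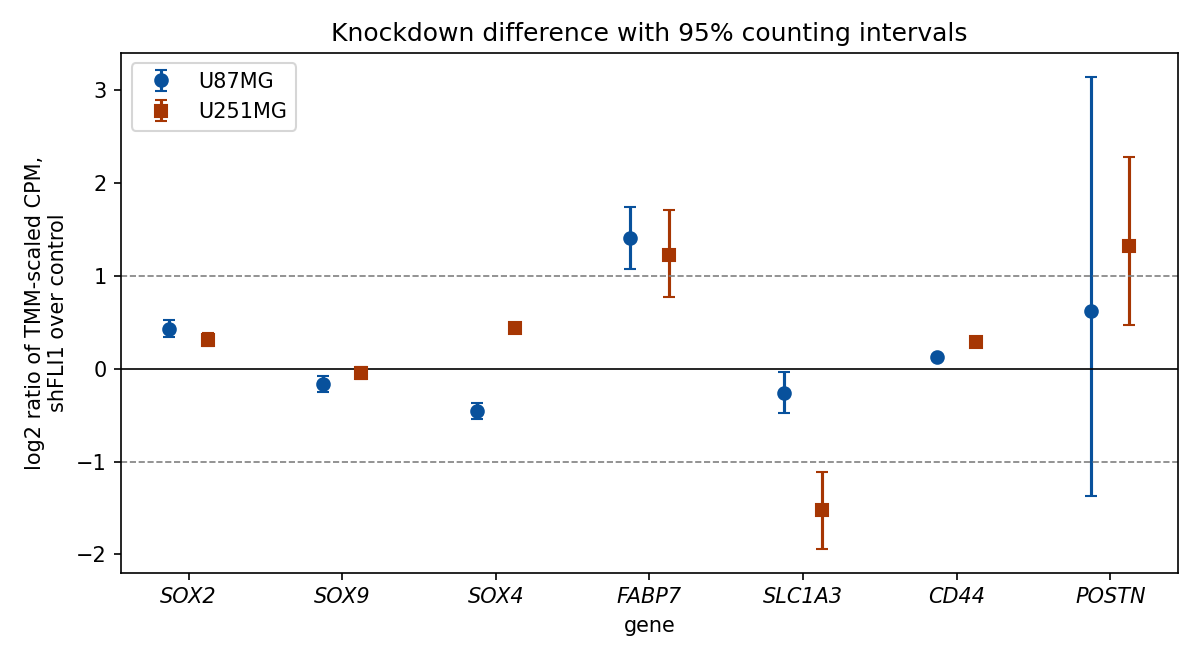
Log2 ratio of TMM-scaled CPM, shFLI1 over control, for the 7 genes with the most counts, with circles for U87MG, squares for U251MG and bars for 95% counting intervals; dashed lines mark 2-fold. The *FABP7* points lie above the upper line in both cell lines, the *SLC1A3* point of U251MG lies below the lower line, and the *SOX4* points lie on opposite sides of 0.

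*FABP7* (Entrez gene 2173, chromosome 6 of GRCh38, 122779716 to 122784074, plus strand) encodes a fatty acid-binding protein of radial glia and astrocytes. Its counts were 91 in control and 468 in shFLI1 cells of U87MG, and 50 and 197 in the same order in U251MG. In CPM these were 7.95 and 21.0 in U87MG and 2.81 and 6.58 in U251MG. The shFLI1 library was the higher of the pair in each cell line, and U87MG control cells still stood above U251MG shFLI1 cells. The ratio of shFLI1 to control CPM was 2.65 in U87MG (95% interval 2.11 to 3.35), a log2 fold change of 1.39, and 2.35 in U251MG (1.71 to 3.27), a log2 fold change of 1.20. The lower bound of the U251MG interval lay under 2-fold. The log2 ratios of the cell lines differed by -0.17 (U251MG minus U87MG, counting interval -0.73 to 0.38), an interval that includes 0. One RNA, NM_001446, carried 96.6% and 96.2% of the *FABP7* counts in U87MG and 80.0% and 94.9% in U251MG control and shFLI1 cells.

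*SLC1A3* (Entrez gene 6507, chromosome 5, 36596588 to 36688334, plus strand) encodes the glial glutamate transporter that clears glutamate from the synapse. Control and shFLI1 cells of U87MG had 275 and 447 counts, or 24.0 and 20.1 CPM. Those of U251MG had 135 and 79 counts, or 7.57 and 2.64 CPM. The U251MG shFLI1 library was the deepest of the 4 and had the fewest *SLC1A3* counts. Its CPM fell to 0.348 of control in U251MG (95% interval 0.260 to 0.463, log2 fold change -1.49), whereas in U87MG the log2 fold change was -0.26 (interval of the log2 ratio -0.48 to -0.04), short of the call. The log2 ratio was -1.26 in U251MG relative to U87MG, with a counting interval of -1.72 to -0.81 that excludes 0. *FABP7* and *SLC1A3*, both glial markers, therefore moved in opposite directions in U251MG. On the FPKM scale with a pseudocount of 1, the *SLC1A3* log2 fold change in U251MG was -1.01, nearer the threshold.

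*S100B* (Entrez gene 6285, chromosome 21, 46598604 to 46605208, minus strand) had 1 and 7 counts in U87MG control and shFLI1 cells and 6 and 11 in U251MG control and shFLI1 cells. At 0.09 to 0.37 CPM it was tested in U251MG alone, where the log2 fold change was 0.10 (interval of the log2 ratio -1.43 to 1.85), and a difference was not detectable at this depth.

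Of the SOX factors, *SOX2* (Entrez gene 6657, chromosome 3, 181711925 to 181714436, plus strand), a transcription factor of neural stem cells, had 1337 and 3504 counts in U87MG control and shFLI1 cells, or 117 and 158 CPM. The U251MG values were 2497 and 5217 counts, or 140 and 174 CPM. The shFLI1 library was higher than its control in each cell line, by less than 2-fold. The log2 fold changes were 0.43 in U87MG (95% interval 0.34 to 0.52) and 0.31 in U251MG (0.25 to 0.38). The change in U251MG was the smaller by 0.12 on the log2 scale, with a counting interval of -0.23 to -0.0033 that barely excludes 0.

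*SOX9* (Entrez gene 6662, chromosome 17, 72121020 to 72126416, plus strand) acts in the switch from neurons to glia. It had 1645 and 2854 counts in U87MG control and shFLI1 cells, or 144 and 128 CPM, and 3403 and 5548 counts in U251MG, or 191 and 185 CPM. Its level hardly differed within a cell line, with log2 fold changes of -0.16 in U87MG (95% interval -0.25 to -0.07) and -0.04 in U251MG (-0.10 to 0.02). With scaling to total counts or with FPKM the U251MG value was 0.03, so its sign depends on the scale. Scaling to total counts moved the median over all tested genes on the log2 fold change scale from 0.06 to 0.22 in U87MG and from 0.04 to 0.11 in U251MG.

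*SOX4* (Entrez gene 6659, chromosome 6, 21593751 to 21598619, plus strand), a transcription factor of progenitors and immature neurons, was the SOX gene that differed most between the cell lines. It had 1751 and 2483 counts in U87MG control and shFLI1 cells, or 153 and 112 CPM, and 5392 and 12262 counts in U251MG, or 303 and 410 CPM. The shFLI1 library was the lower of the pair in U87MG and the higher in U251MG, and both U251MG libraries stood above both U87MG libraries. The log2 fold change was -0.45 in U87MG (95% interval -0.54 to -0.36) and 0.44 in U251MG (0.39 to 0.48), both short of 2-fold. The log2 fold change in U251MG was greater by 0.89, with a counting interval of 0.79 to 0.99, and the opposite signs held with every scaling run and with FPKM. One RNA, NM_003107, carried 98.9% or more of the *SOX4* counts in each library.

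*CD44* (Entrez gene 960, chromosome 11, 35138882 to 35232402, plus strand) had 18281 and 38727 counts in U87MG control and shFLI1 cells, or 1596 and 1741 CPM. The U251MG values were 18613 and 38258 counts, or 1044 and 1278 CPM. Both shFLI1 libraries were above their controls, by far less than 2-fold. The log2 fold changes were 0.13 in U87MG (95% interval 0.10 to 0.15) and 0.29 in U251MG (0.27 to 0.32), narrow because the gene was so deeply counted. The change was greater in U251MG by 0.17 under TMM scaling (counting interval 0.13 to 0.20). These values depended on the scale. With total counts the log2 fold changes were 0.29 in U87MG and 0.37 in U251MG. With FPKM and a pseudocount of 1 they were 0.35 and 0.38. All of these lay outside the counting intervals above, and the cell lines were then closer together. *CD44* RNA is spliced with a variable set of exons in its stalk, and the table split its counts over 31 RNAs. The standard RNA without variable exons, NM_001001391, took 49.4% and 50.5% of the *CD44* counts in U87MG control and shFLI1 cells and 50.2% and 49.6% in U251MG control and shFLI1 cells. The share of NM_001202556 was 9.48% and 5.59% in U87MG, and 11.7% and 10.6% in U251MG. These shares rest on the authors' split of reads among RNAs that overlap, and they have no test.

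**Figure D3:**
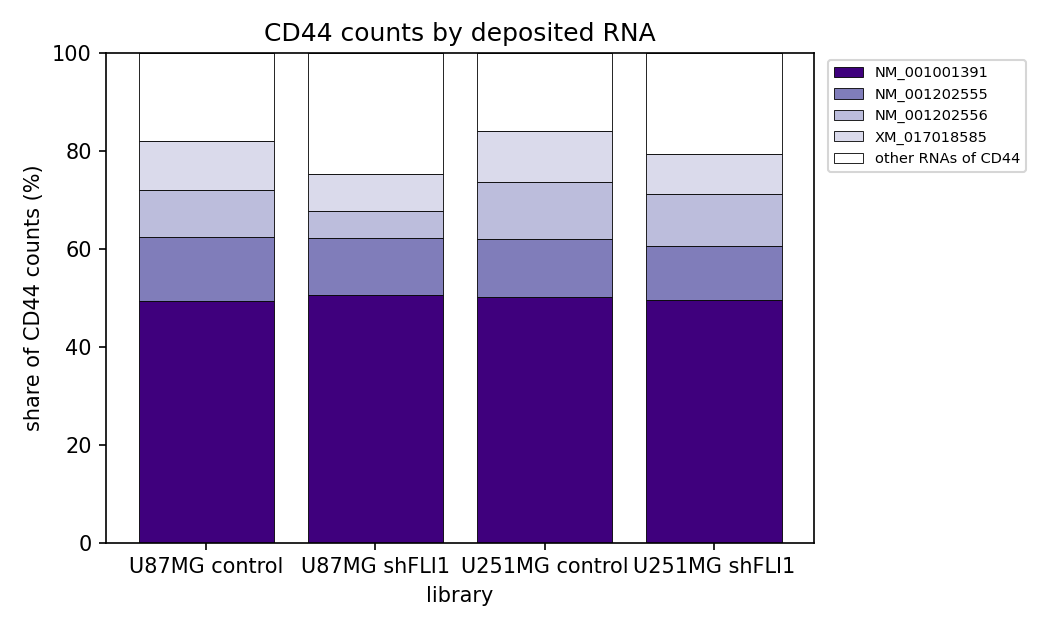
Share of the estimated *CD44* counts, in percent, assigned to each of its 4 most abundant RNAs and to the others together, with 1 bar per library. NM_001001391 takes between 49.4% and 50.5% of the counts in all 4 libraries, and the segment of NM_001202556 is smallest in U87MG shFLI1 cells, at 5.59%.

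*POSTN* (Entrez gene 10631, chromosome 13, 37562583 to 37598844, minus strand) had 3 and 9 counts in U87MG control and shFLI1 cells and 14 and 59 in U251MG control and shFLI1 cells, or 0.26, 0.40, 0.79 and 1.97 CPM. It was called higher in U251MG shFLI1 cells, with a ratio of 2.51 (95% interval 1.38 to 4.87) and a log2 fold change of 1.23, and was too low to be tested in U87MG, where the ratio had an interval of 0.39 to 8.87. On the FPKM scale the U251MG log2 fold change was only 0.16 with a pseudocount of 1 and 0.37 with a pseudocount of 0.1. Its counts fell on different RNAs in different libraries, with 63.7% on NM_001135935 in U251MG control and 65.0% on NM_001286665 in U251MG shFLI1 cells. Periostin is also made by fibroblasts. Of 5 listed fibroblast and pericyte markers 4 were in the table, and their summed level was 31.9 and 16.1 CPM in U87MG control and shFLI1 cells and 39.4 and 20.2 CPM in U251MG. Most of the U251MG difference in that sum was in *ACTA2* (23.5 and 5.21 CPM), while *RGS5* (8.86 and 8.38 CPM) and *PDGFRB* (7.01 and 6.61 CPM) differed little, and *DCN* had 1 and 0 counts. Each library came from a culture of 1 glioblastoma cell line, and the source of the *POSTN* counts was not tested.

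*CHI3L1* (Entrez gene 1116, chromosome 1, 203178931 to 203186704, minus strand) had 9 and 15 counts in U87MG control and shFLI1 cells, or 0.79 and 0.67 CPM, and 0 counts in both U251MG libraries, which allows up to 3 counts in each. In U87MG the log2 fold change was -0.19 (interval of the log2 ratio -1.51 to 1.15), and a difference was not detectable at this depth. No fold is given for U251MG.

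The control libraries were compared to see how the cell lines differ before knockdown. The glial markers *FABP7* and *SLC1A3* were lower in U251MG than in U87MG control cells, at 0.353 (95% interval 0.245 to 0.504) and 0.315 (0.255 to 0.389) of the U87MG CPM, and both were called. The measured SOX genes were higher in U251MG, *SOX9* 1.33-fold (1.25 to 1.41) and *SOX2* 1.20-fold (1.12 to 1.28). *SOX4* was 1.98-fold higher (1.87 to 2.09), just short of the call under TMM scaling. It was past 2-fold with total counts (log2 difference 1.06) and with FPKM (1.03 and 1.05 with pseudocounts of 1 and 0.1). *CD44* in U251MG was at 0.654 of its U87MG level (0.641 to 0.668). *POSTN*, at low counts, had a ratio of 3.00 (0.837 to 16.3) and was not called. *CHI3L1* had 9 counts in U87MG and 0 in U251MG control cells, with an upper bound of 0.325 on the ratio, and was too low to be tested. Of the 7 genes tested, 2 were called, where 15.4% of 16391 tested genes were called in either direction. With 1 culture per cell line, differences between cell lines and between cultures cannot be told apart.

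To ask for an effect common to both cell lines, all 4 libraries were put into 1 quasi-likelihood fit in edgeR that took the cell line as a block and so used the 2 lines as replicates. Of the 8 genes tested, *FABP7* rose, with a shared log2 fold change of 1.31 and a Benjamini-Hochberg adjusted p of 0.0165 from edgeR, higher in 2 of 2 cell lines. Over all 16649 genes tested, 3.08% passed in either direction, 0.931% higher and 2.14% lower. *SOX2* (0.36, edgeR adjusted p = 0.245) and *SLC1A3* (-0.83, edgeR adjusted p = 0.184) were under 0.05 before adjustment but not after it. *SOX4* (-0.02), *SOX9* (-0.12), *CD44* (0.19), *POSTN* (1.10) and *CHI3L1* (-0.24) had edgeR adjusted p values between 0.398 and 0.980, and the sign of *SOX4* and *SOX9* turned with scaling to total counts. Without the cell line block the edgeR adjusted p of *FABP7* was 1.0, with 0 genes past the threshold and 725 genes at an unadjusted p under 0.05. Over the alternatives the edgeR or DESeq2 adjusted p of *FABP7* ranged from 4.83e-06 to 1.0.

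Over the 4 libraries, *SOX2* and *SOX9* had the smallest distance between centred log2 CPM values of any pair of the 9 genes, 0.56. The distance is not scaled by how much a gene varies, so genes that differ little between libraries lie close. Under TMM scaling *SOX2* was higher and *SOX9* slightly lower in shFLI1 cells of both cell lines. *CD44* was nearest to *SOX2* (0.76), and *SOX4* and *POSTN* were nearest to each other (0.90). *FABP7* lay farthest from its nearest gene, *CD44*, at a distance of 1.51. *SLC1A3* and *CHI3L1*, nearest to each other, were almost as far from any other gene (1.325). Low counts limit the distances of *S100B*, *CHI3L1* and *POSTN*. These distances rest on 4 libraries and are given as a description.

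Lists of related genes were read beside these markers, against medians over all tested genes of 0.06 in U87MG and 0.04 in U251MG on the log2 fold change scale. Of all tested genes, 7.48% were called higher and 4.33% lower in U87MG, and 4.44% higher and 4.06% lower in U251MG. Of 26 listed neural progenitor and oligodendrocyte-lineage genes, 17 were tested in U87MG, with 1 called higher and 1 lower and a median of -0.18, and 19 in U251MG, with 0 higher and 3 lower and a median of -0.08. *DLL1*, a ligand of Notch receptors, was called lower in each cell line, as were 1.45% of all genes tested in both, from 26 to 14 counts in U87MG (log2 fold change -1.70) and from 99 to 63 in U251MG (-1.36), with an edgeR adjusted p of 0.0638 for the shared effect. The other called genes of this list, named after their values were seen, were *MSI1*, an RNA-binding protein of neural stem cells, higher in U87MG (log2 fold change 1.26), and *ID4* (-1.07) and *NKX2-2* (-1.07), lower in U251MG. In the shared edgeR test 2 of 19 progenitor genes were lower, where 2.14% of all tested genes were, *ID1* (shared log2 fold change -0.90, adjusted p = 0.0203) and *ID2* (-0.80, adjusted p = 0.0189), which encode inhibitors of basic helix-loop-helix factors and were named after their values were seen. *SOX2*, with shared log2 fold change 0.36, and *SOX9*, with -0.12, did not pass that test.

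Of 21 listed astrocyte genes, 12 were tested in each cell line, with 2 called higher and 0 lower in each. Of all tested genes, 7.48% were called higher in U87MG and 4.44% in U251MG. The list medians were 0.19 in U87MG and -0.08 in U251MG, with a log2 fold change above 0 in 7 and 5 of the 12 genes. *GFAP*, the intermediate filament of astrocytes, went from 634 to 1587 CPM in U87MG and from 20.4 to 93.8 CPM in U251MG, with a shared edgeR adjusted p of 0.00763. It was the 1 gene of 12 that was higher in the shared edgeR test, where 0.931% of all tested genes were. *SPARCL1*, a matrix-associated protein secreted by astrocytes, went from 8 to 58 counts in U87MG and from 8 to 35 in U251MG, with log2 fold changes of 1.76 and 1.21 and a shared edgeR adjusted p of 0.148. *FABP7* thus shared its direction with the 2 called genes, *GFAP* and *SPARCL1*, in U87MG and U251MG, but not with the astrocyte list as a whole. *SLC1A3* was called lower in U251MG and *S100B* was not called. The water channel *AQP4* had 0 to 7 counts in the 4 libraries.

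Of 32 listed mesenchymal state genes, 31 were tested per cell line, with 0 called higher in either. Called lower were 4 in U87MG and 3 in U251MG, against 4.33% and 4.06% of all tested genes. The medians were -0.30 and -0.28, with a log2 fold change above 0 in 8 and 10 of 31 genes. *RELB*, an NF-κB subunit, was called lower in both, from 31.1 to 9.80 CPM in U87MG (log2 fold change -1.66) and from 16.9 to 7.08 CPM in U251MG (-1.25), with a shared edgeR adjusted p of 0.00564. Others called lower, named after their values were seen, included *LGALS1* (log2 fold change -1.08), *S100A11* (-1.11) and *CEBPD* (-1.06) in U87MG, and *THBS1* (-1.03) in U251MG. In the shared edgeR test 4 of 31 genes were lower, against the same 2.14% of all tested genes, *RELB* and, named after their values were seen, *CEBPD* (shared log2 fold change -0.94, adjusted p = 0.0179), *S100A11* (-0.94, adjusted p = 0.0152) and *LGALS3* (-0.72, adjusted p = 0.0330), which encode a bZIP transcription factor, a calcium-binding protein and a galectin. The list leaves out *CD44*, *CHI3L1* and *POSTN*. *CD44*, with log2 fold changes of 0.13 and 0.29, did not go the way of these genes. Nor did *POSTN*, which was called higher in U251MG (log2 fold change 1.23) at low counts. *ACTA2*, a marker of pericytes and smooth muscle, was lower as well in these cultures of glioblastoma cell lines. Control and shFLI1 cells had 25.0 and 11.8 CPM in U87MG and 23.5 and 5.21 CPM in U251MG, and the cause was not tested.

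**Figure D4:**
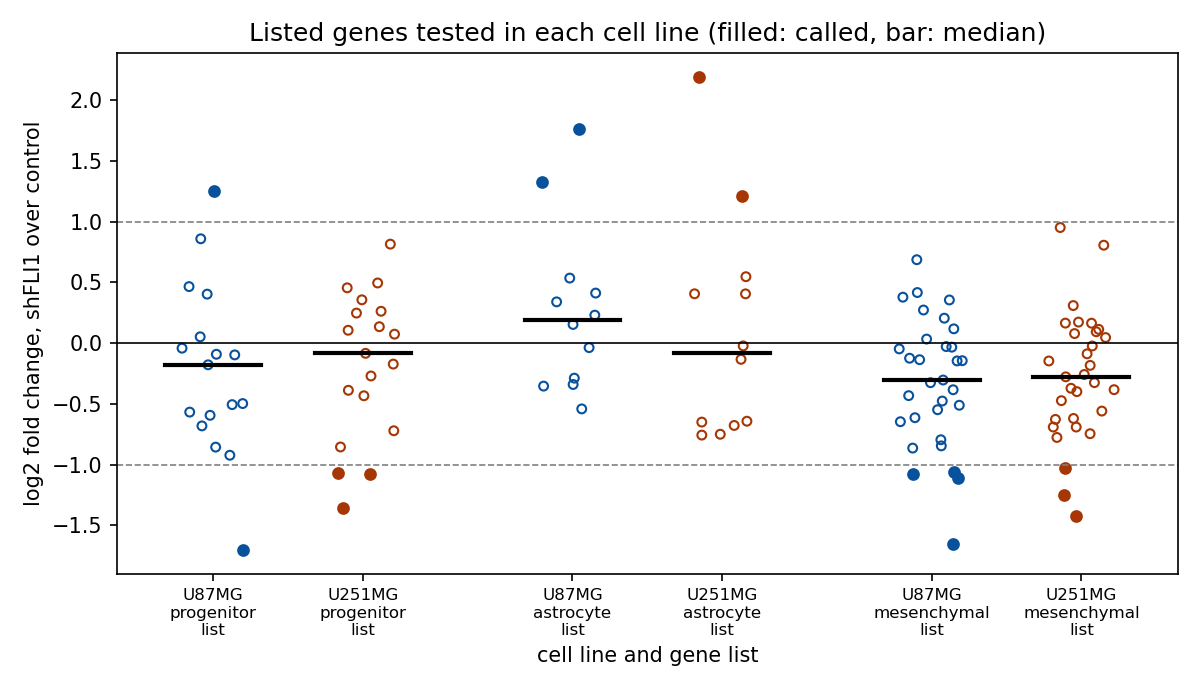
Log2 fold change, shFLI1 over control, of each tested gene of the progenitor, astrocyte and mesenchymal lists in U87MG (blue) and U251MG (red-brown), filled where called, with a bar at the median and dashed lines at 2-fold. The mesenchymal medians lie at -0.30 and -0.28 with no filled point above the upper line, and the 2 filled astrocyte points of each cell line lie above it. The mesenchymal list leaves out *CD44*, *CHI3L1* and *POSTN*.

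The remaining lists held few called genes, to be read beside the shares of all tested genes given above. Of 15 other SOX family genes, 1 of 7 tested was lower in U87MG and 1 of 8 in U251MG, a different gene in each: *SOX18*, a factor of endothelium, at -1.25 (log2 fold change) in U87MG and *SOX3*, a close relative of *SOX2*, at -1.48 in U251MG, both named after their values were seen. Of 13 genes for hyaluronan synthesis and turnover and for the link of CD44 to the cytoskeleton, 9 were tested, and 1 was called, lower in U87MG: the hyaluronan synthase *HAS2*, whose log2 fold changes were -1.38 in U87MG and 0.25 in U251MG, named after its values were seen. Of 9 paralogs of *FABP7* and *SLC1A3*, 4 were tested and 0 were called in either cell line, with medians of -0.30 and -0.38.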

How the data were processed

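RNA-seq of 4 libraries was analysed, grouped by their labels. The authors purified poly-T mRNA and aligned the reads with HISAT2 (GRCh38), and StringTie gave their FPKM. The deposited table gives an estimated count per RNA, not normalized, made with a tool not given in the sources used here, and an FPKM that the authors scaled to transcript length and mapped reads. The paper and the labels name different mRNA library kits. Another 10 columns of values (TPM and cell line means) were left aside.

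Estimated counts of 185042 linear RNAs were summed per gene identifier and rounded, with an ending of 0.5 going to the even number. Reads of overlapping RNAs and of near-identical genes can be split by the authors' estimation. Coordinates are GENCODE genes of GRCh38. Analyses used R 4.3.3, edgeR 4.0.16 (TMM, binomTest, glmQLFit and glmQLFTest), DESeq2 1.42.0 as an alternative and Python 3.11.15. Genes for the shared test were kept by filterByExpr, with TMM factors from the kept genes and Benjamini-Hochberg adjustment over all of them, and 1 residual degree of freedom. The sources do not say that libraries came from repeated cultures. Differences between cell lines in log2 ratio have 95% counting intervals and no p. Since reads of PCR products need not be separate molecules, all intervals and floors describe counting error alone. A count of 0 allows up to 3 counts.

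The members, gene lists and tests were chosen with earlier results of these data known, and the rounding and the genes behind the TMM factors of the shared test were settled after its output was seen. From each list, up to 4 genes with the same call in U87MG and U251MG and up to 2 with opposite calls were named, and 1 called gene of the mesenchymal list is not reported here by name. Scripts were tested on simulated counts. Alternatives covered scaling, prior count, filters, fold threshold, FPKM, DESeq2 and the cell line block.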

Additional observations from a re-analysis of the deposited data

Results flagged for a closer look

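*SOX4* had opposite signs in the cell lines, lower in shFLI1 cells of U87MG (log2 fold change -0.45) and higher in shFLI1 cells of U251MG (0.44). The difference, U251MG minus U87MG, was 0.89. With 1 library per condition this difference was not tested.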

How the results depend on the processing

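Each condition has 1 library, so no library could be left out, and no spread between replicates supports a value within a cell line. The cell line block of the shared test pairs each shFLI1 library with its control, and leaves 1 residual degree of freedom. Under 8 alternatives, 1 of the genes was called in U87MG and 1 in both cell lines each time, and 2 to 3 were called in U251MG. Between control cells the count of 2 was 3 with total counts, where *SOX4* passed 2-fold. With FPKM it was 3 on the log2(value + 1) scale and 4 on the log2(value + 0.1) scale. The FPKM settings called genes on the 2-fold threshold alone, without the read test. *SOX4* passed on both scales (log2 differences 1.03 and 1.05) and *POSTN* on the second (1.56). With TMM-scaled counts *POSTN* was past 2-fold (1.29) but did not pass the read test. The count was 3 with no filter on low counts, 4 with a threshold of 1.5-fold and 1 under a minimum of 100 counts. By construction these 3 settings test more genes, loosen the threshold and test fewer genes, in that order. In the shared edgeR test the count of 1 was 0 without the cell line block and 2 with at least 1 count in 1 library, where *SLC1A3* had an edgeR adjusted p of 0.00954, and the cause was not tested. It was 0 with at least 100 counts in every library, where *FABP7* was not tested. Of alternatives added after seeing the data, TMM factors from all genes gave 1 (362 genes in all, against 512) and rounding 0.5 upwards gave 1 (527 genes). Of 85 log2 fold changes under alternatives, 27 left their counting interval and 3 changed sign, all 3 of *SOX9* in U251MG. Over all genes, 555 in U87MG, 400 in U251MG and 1050 between controls were called with at least 100 counts. In the same order, 3626, 2885 and 4614 were called at 1.5-fold. On fold alone, log2(FPKM + 1) gave 830, 538 and 1269, where TMM-scaled counts with the read test gave 2050, 1548 and 2528. The shared test had 1304 genes with at least 1 count in 1 library. Low counts limit *S100B*, *CHI3L1* and *POSTN*.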
